A study of Mus musculus with 20 samples.

Results

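The effect of the SGLT2 mutation on kidney cortex RNA was measured as an average over 2 treatments, in all 20 of the 20 libraries of the series, 10 of them labelled SP and 10 labelled WT. Every library came from a male C3H/HeJ mouse on a high-fat diet (HFD). This strain carries a mutation of Tlr4 that blunts its response to endotoxin, and the labels give it for SP and WT mice alike. SP mice carry the Sweet Pee missense mutation of Slc5a2, the gene of the glucose carrier SGLT2, on both copies, and WT mice do not. After 8 weeks of HFD, mice of each genotype received either DMSO (placebo) or MAT2Ai, a fluorinated N-methylaniline that inhibits the methionine adenosyltransferase MAT2A, at 10 mg/kg by the intraperitoneal route, 3 times a week for 8 weeks. The 4 groups, WT placebo, WT MAT2Ai, SP placebo and SP MAT2Ai, held 5 libraries each. The averaged effect is the mean of the SP minus WT difference under placebo and the SP minus WT difference under MAT2Ai, so a gene that follows genotype under both treatments counts fully and a gene that moves in opposite directions cancels. Nothing in the labels ties the mice to litters, and no group on another diet entered, so every value holds for mice on HFD only.

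SGLT2 sits in the brush border of the early proximal tubule, where it takes back most of the glucose that the glomerulus filters, together with sodium, and SGLT1 (Slc5a1) takes up what is left further downstream. A kidney without working SGLT2 loses glucose into the urine, and drugs that block the carrier are given for diabetes, heart failure and chronic kidney disease. The proximal tubule makes up most of the cortex, runs largely on fatty acid oxidation, and also carries urate, organic anions, amino acids and phosphate.

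The libraries held 53296824 to 79339949 reads counted in genes, and the SP libraries were the deeper ones, with a median of 67185486.5 against 61463000 in WT. Mitochondrial transcripts took 12.4% to 22.2% of the counts, and 16152 genes with enough counts were tested. The proximal tubule markers that define cortex were abundant in every library: the 16 genes of the S1 and S2 segments summed to a lowest, median and highest of 26174, 42685 and 56239.7 CPM (read counts scaled to the size of each library) in WT and 45561, 47704 and 57192 CPM in SP. On the first principal component of log2 CPM, which took 20.5% of the variance, WT MAT2Ai replicate 2 stood at 89.7, and replicates 3 and 4 of that group followed at 21.8 and 19.4. On the second, which took 13.3%, SP MAT2Ai 3, 5 and 2 stood at −40.8, −31.1 and −29.3. At its other end WT MAT2Ai 3 and WT placebo 2 stood at 30.1 and 29.4. Results that rest on WT MAT2Ai 2, 3 and 4, or on the libraries labelled SP placebo 1 and 2 that are described next, are given with and without them. SP MAT2Ai libraries were left out singly and not as a set.

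Slc5a2 (ENSMUSG00000030781, mm10 chromosome 7, 128265657 to 128272430) was lower in SP, but not in every library that bears the label. The placebo libraries of WT held 371, 518, 379.6, 405 and 448 CPM for replicates 1 to 5 and those of WT MAT2Ai held 415, 229, 389.6, 325 and 385 CPM. In SP MAT2Ai the values were 72.6, 47.0, 43.5, 85.9 and 60.0 CPM. The SP placebo group held 241, 282, 70.1, 40.2 and 56.7 CPM, so the libraries labelled SP placebo 1 and 2 lay within the WT range, while 8 of 10 SP libraries lay below every WT library. The averaged log2 fold change was −2.06 ± 0.29 (SE, n = 10 each; edgeR quasi-likelihood test, Benjamini-Hochberg adjusted p = 0.00693), and −2.72 (adjusted p = 6.32e-08) without the libraries labelled SP placebo 1 and 2. Poly(A) RNA counts show the amount of transcript and not the missense base, so the genotype of these libraries was not tested. The neighbouring gene BC017158 overlaps the end of Slc5a2, stood at a lowest, median and highest of 25.5, 29.3 and 31.4 CPM in WT and 30.5, 32.6 and 35.4 CPM in SP, and rose by 0.17 ± 0.04 (adjusted p = 0.0308). The strand setting of the counting is not given in the sources used here, so reads of the overlap cannot be told apart.

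**Figure D1:**
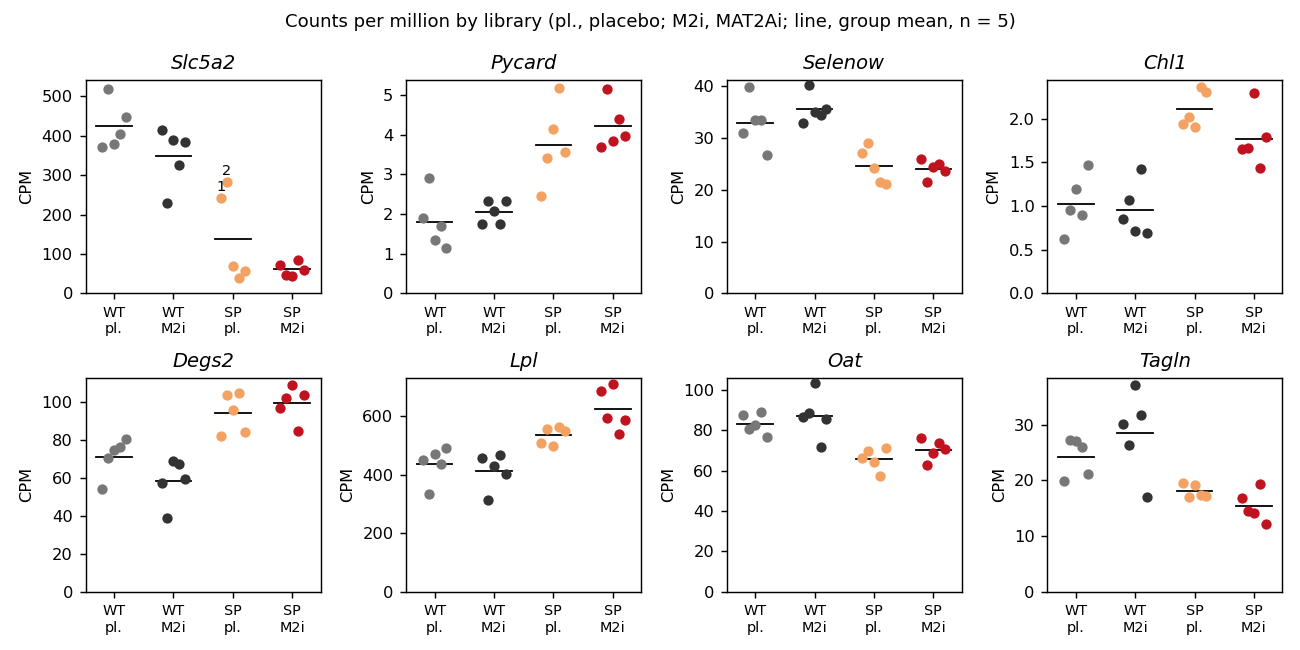
CPM of 8 genes in each of the 20 libraries, by group (pl., placebo; M2i, MAT2Ai); the black line is the group mean (n = 5), each axis starts at 0, and the numbers 1 and 2 in the Slc5a2 panel mark the replicates of the libraries labelled SP placebo 1 and 2. Slc5a2 in these libraries, at 241 and 282 CPM, lies among the WT values, while for Chl1, Degs2 and Lpl they lie above every WT library.

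The same 2 libraries did not side with WT for every gene. The genes that follow passed with these libraries in the fit, so their values are a description. Both lay above every WT library for Chl1, Degs2 and Lpl, at 1.95 and 2.03 CPM, 82.3 and 104 CPM, and 509 and 557 CPM. Both lay below every WT library for Oat, at 66.1 and 69.9 CPM. Both lay inside the WT range for Selenow, at 27 and 29.0 CPM, where the 8 other SP libraries lay below it. For Pycard the library labelled SP placebo 1, at 2.46 CPM, was the lowest in SP and inside the WT range, and the library labelled SP placebo 2 was above it at 3.41 CPM.

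Over both treatments 98 genes were higher in SP (0.607% of the 16152 tested) and 117 were lower (0.724%), 215 in all (1.33%). An unadjusted p under 0.05 was reached by 3160 (19.6%), and DESeq2, limma-voom and edgeR's likelihood ratio test called 894 (5.53%), 1341 (8.3%) and 677 (4.19%). The genes that rose were mostly abundant and moved little. Their median level was a mean log2 CPM of 6.34, against 3.52 over all genes tested, and their median log2 fold change was 0.29. The genes that fell were scarcer and moved further, with a median mean log2 CPM of 2.38 and a median log2 fold change of −0.59. A change of at least 1.5-fold was seen in 14 of the 98 genes that rose and in 60 of the 117 that fell. The median over all genes tested was −0.01.

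**Figure D2:**
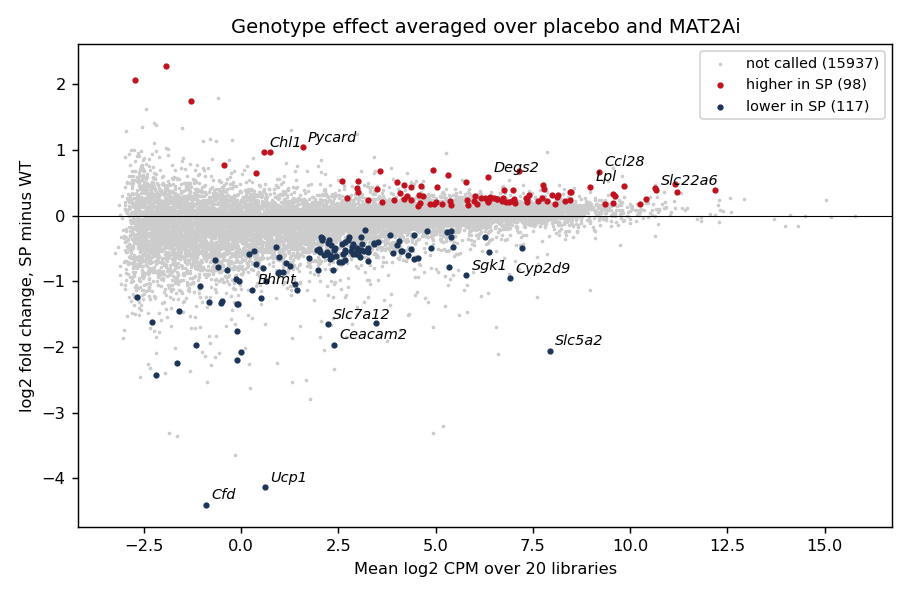
Averaged log2 fold change, SP minus WT, against the mean log2 CPM over 20 libraries for the 16152 genes tested; red points are the 98 genes higher in SP, dark blue points the 117 lower, and grey points the others. The red points lie mostly to the right, at high abundance and small changes, and the dark blue points extend further from 0 at low abundance.

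The number of genes depended strongly on single libraries. It lay between 20 (without SP placebo 4) and 556 (without WT MAT2Ai 4) when each was left out in turn, and 15 of the 20 removals moved it by over 1.5 times. It fell to 48, 84 and 76 without WT placebo 2, 3 or 4, to 136 without WT MAT2Ai 3, to 82 and 39 without SP placebo 2 or 3, and to 128, 67, 102 and 39 without SP MAT2Ai 1, 2, 3 or 5. It rose to 369 and 329 without WT MAT2Ai 2 or 5 and to 340 without SP MAT2Ai 4. The direction of each of the 215 genes was the same in all of these fits. Each fit keeps all but 1 of the libraries by which the genes were chosen, so this is no separate test of their direction. In all 20 fits 19 genes passed, among them Acot12, Atp1b2, Bhmt, Cd1d1, Chl1, Cyp2d9, Degs2, Ehhadh, Lpl, Ms4a6b, Oat, Pigz, Pycard, Selenow, Slc5a2, Slc6a15 and Tagln. Without the libraries labelled SP placebo 1 and 2 the number was 187, of which 127 were among the 215, and without WT MAT2Ai 2, 3 and 4 it was 444, of which 118 were.

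How the calls were made up from the differences under each treatment was described gene by gene. Of the 215 genes, 130 (0.805% of all genes tested) followed genotype under both treatments, that is, the placebo and the MAT2Ai difference of the same model had the same sign as the average and each had an unadjusted p under 0.05. Of these, 71 were higher and 59 lower in SP. The genes were chosen by the average of these same differences, so the count describes the calls and is no further test. Of the other 85 genes, 80 did not reach that p under placebo and 5 did not under MAT2Ai. The difference was larger in size under MAT2Ai for 187 of the 215 and under placebo for 28, with median sizes of 0.59 and 0.30 on the log2 scale. The interaction of genotype and treatment reached an adjusted p under 0.05 for 0 genes in edgeR's quasi-likelihood test (smallest adjusted p = 0.842, and 903 genes with an unadjusted p under 0.05). In the same model 298 genes passed in the MAT2Ai libraries (1.84%) and 0 in the placebo libraries (606 with an unadjusted p under 0.05). When each library was left out in turn, the 298 became between 0 (without SP MAT2Ai 3 or 5) and 793 (without WT MAT2Ai 4). DESeq2, limma-voom and edgeR's likelihood ratio test called 7, 4 and 7 genes in the placebo libraries, and 1, 0 and 1 genes for the interaction. Chl1, Pycard and Reep6 were among the placebo genes of all 3, and the interaction gene was Adgrf3 (Reep6 and Adgrf3 were named after their values were seen). Its interaction stood at the extreme log2 values of −17.3 in DESeq2 and −16.8 in the likelihood ratio test. The averaged log2 fold changes of all genes tested lay between −4.40 and 2.28.

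Fitting the placebo and the MAT2Ai libraries separately gave comparisons that share no library. With an adjusted p under 0.05 these separate edgeR fits called 0 genes in placebo (1212 with an unadjusted p under 0.05) and 2 in MAT2Ai, Slc5a2 and Selenow, so genes with an unadjusted p under 0.001 were taken instead, a threshold chosen after seeing the data, and Slc5a2 was left out. In the MAT2Ai libraries 91 genes met it, and 82 of them (90.1%) had the same sign in the placebo libraries, where 63.1% of all genes tested did. Of the 91, 24 (26.4%) also had an unadjusted p under 0.05 with that sign in placebo, against 6.23% of all genes tested. In the other direction 43 genes met the threshold in the placebo libraries, 40 (93.0%) kept their sign in the MAT2Ai libraries and 29 (67.4%) had an unadjusted p under 0.05 there, against 12% of all genes tested. Genes chosen under placebo thus carried over at a higher share than genes chosen under MAT2Ai. The difference between the shares was not tested.

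**Figure D3:**
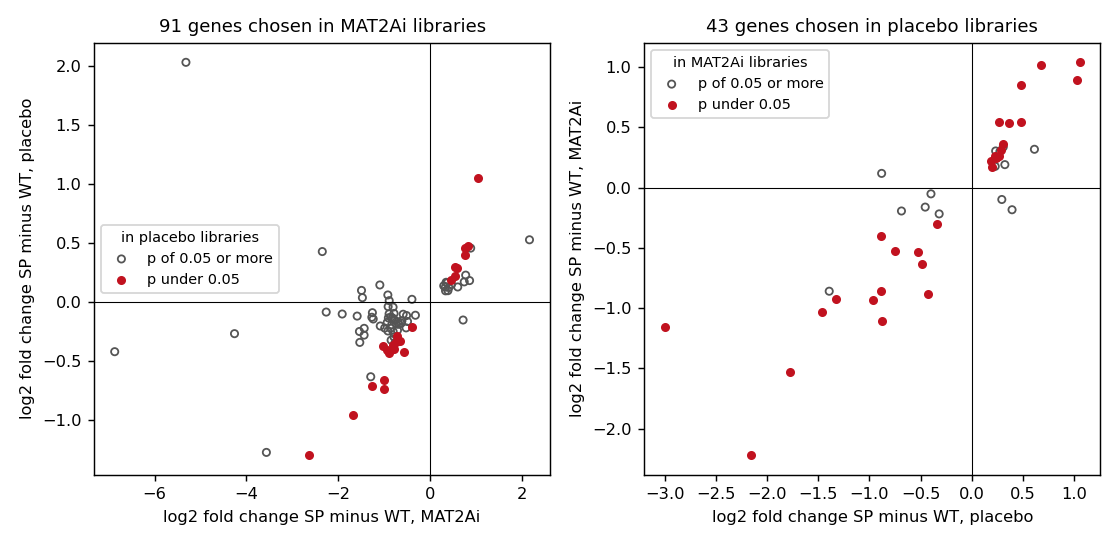
Log2 fold changes, SP minus WT, from separate fits of the MAT2Ai and the placebo libraries, for the 91 genes with an unadjusted p under 0.001 in MAT2Ai (left) and the 43 in placebo (right), without Slc5a2; filled red points have an unadjusted p under 0.05 in the other treatment and open points do not. Of the points, 82 of 91 and 40 of 43 lie in the quadrants where the signs are the same.

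The 91 genes also place each placebo library between the genotypes, on a scale where 0 is the WT MAT2Ai mean and 1 the SP MAT2Ai mean and the median over the genes is taken. The WT placebo libraries 1 to 5 stood at 0.553, −0.0153, 0.308, 0.328 and 0.433. The SP placebo libraries stood at 0.309, 0.558, 0.760, 0.943 and 0.428. SP placebo 2, 3 and 4 lay above every WT placebo library, while the library labelled SP placebo 1 and SP placebo 5 lay among them. With the 43 genes chosen in placebo, and 0 and 1 set by the placebo groups, the WT MAT2Ai libraries stood at −0.158, −0.552, 0.0954, 0.617 and 0.0422 and the SP MAT2Ai libraries at 0.984, 0.927, 0.883, 0.592 and 1.10. WT MAT2Ai 4 and SP MAT2Ai 4 lay side by side between the genotypes. Removal of either raised the number of genes, but so did removal of WT MAT2Ai 2 or 5, which stood at −0.552 and 0.0422. A link between position and number was not tested.

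The gene with the most sizeable rise among those whose mean log2 CPM was 0 or more was Pycard (ENSMUSG00000030793, mm10 chromosome 7, 127989708 to 127993867), which encodes ASC, the adaptor that joins inflammasome sensors to caspase-1. It stood at a lowest, median and highest of 1.14, 1.83 and 2.92 CPM in the 10 WT libraries and at 2.46, 3.91 and 5.19 CPM in the 10 SP libraries. All but 1 of the SP libraries were above every WT library. Its log2 fold change was 1.05 ± 0.15 (adjusted p = 0.00701), nearly the same under placebo (1.06 ± 0.22) and MAT2Ai (1.04 ± 0.22). Pycard lies 0.277 Mb from Slc5a2 on chromosome 7. Within 10 Mb of Slc5a2 on either side 6 of 199 other genes tested passed (3.02%), 2 higher and 4 lower, and on the whole chromosome 28 of 1170 did (2.39%), Slc5a2 included. The share was 3.02% on chromosome 16 as well (15 of 497), and between 0.549% and 1.89% on each of the other chromosomes.

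Selenow (ENSMUSG00000041571, mm10 chromosome 7, 15917208 to 15922402), a small selenoprotein with a redox fold, had the smallest adjusted p beside Slc5a2. Its levels were 26.6, 33.9 and 40.3 CPM (lowest, median and highest) in WT and 21.2, 24.2 and 29.0 CPM in SP, with 8 of 10 SP libraries below every WT library. It fell by 0.49 ± 0.07 (adjusted p = 0.00693). Chl1, a cell adhesion molecule of the L1 family best known from neurons, went from 0.626, 0.925 and 1.47 CPM in WT to 1.44, 1.93 and 2.36 CPM in SP and rose by 0.96 ± 0.16 (adjusted p = 0.0134). For Oat, ornithine aminotransferase, which turns ornithine toward glutamate and proline, the levels were 71.8, 86.2 and 104 CPM in WT and 57.6, 69.4 and 76.4 CPM in SP, and 8 of 10 SP libraries were below every WT library. Oat fell by 0.32 ± 0.06 (adjusted p = 0.0202), by about the same under placebo (−0.34 ± 0.08) and MAT2Ai (−0.31 ± 0.08). Oat lies 4.30 Mb from Slc5a2 on chromosome 7, among the 6 other genes within 10 Mb that passed.

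Of the proximal tubule carriers and segment markers listed, 4 carriers rose, Slc22a6, Slc22a12, Slc17a3 and Slc2a9. Levels are the lowest, median and highest CPM of the 10 libraries of a genotype here and in all that follows. Slc22a6, the organic anion carrier OAT1 that brings drugs and urate into the cell from the blood, stood at 926, 1438 and 1721 CPM in WT and 1472, 1885 and 1986 CPM in SP. It rose by 0.39 ± 0.07 (adjusted p = 0.0202), with 8 of 10 SP libraries above every WT library. Slc22a12, the urate exchanger URAT1, had levels of 1087, 1214 and 1399 CPM in WT and 1209, 1501 and 1718 CPM in SP. It rose by 0.25 ± 0.06 (adjusted p = 0.0479), with 7 of 10 SP libraries above every WT library, and the difference was 0.15 ± 0.09 under placebo and 0.36 ± 0.09 under MAT2Ai. Slc17a3, an organic anion carrier of the luminal side (NPT4) that moves urate, went from 493, 688 and 848 CPM in WT to 717, 881 and 932 CPM in SP, a rise of 0.30 ± 0.07 (adjusted p = 0.0416). Slc2a9, the urate carrier GLUT9, held 14.0, 17.2 and 20.9 CPM in WT and 17.8, 20.9 and 26.3 CPM in SP, a rise of 0.30 ± 0.07 (adjusted p = 0.0416). The genotypes overlapped for both, with 7 and 5 of 10 SP libraries above every WT library.

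The rises of these 4 carriers were small, between 0.25 and 0.39 on the log2 scale, and the calls were close to the threshold for 3 of them. When each library was left out in turn, Slc22a6 passed in 18 of 20 fits, Slc17a3 in 7, Slc2a9 in 6 and Slc22a12 in 5. Without the libraries labelled SP placebo 1 and 2 the log2 fold changes of Slc22a12 and Slc2a9 were 0.27 (adjusted p = 0.0586) and 0.26 (0.0879), and without WT MAT2Ai 2, 3 and 4 those of Slc22a12, Slc17a3 and Slc2a9 were 0.23 (0.102), 0.23 (0.0667) and 0.24 (0.082).

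Of the 20 glucose and sodium-coupled carriers listed, 2 rose (Slc2a9 and Slc17a3) and 1 fell (Slc5a2), beside 1.33% of all genes tested. The median over the list was 0.01, against −0.01 over all genes, and −0.03 without WT MAT2Ai 2, 3 and 4. Slc5a1, the SGLT1 carrier that takes up glucose beyond the reach of SGLT2, stood at 55.2, 75.4 and 109 CPM in WT and 61.9, 71.3 and 90.6 CPM in SP, and its log2 fold change was −0.09 ± 0.09 (adjusted p = 0.626). Of 16 S1 and S2 markers 2 rose, Slc22a6 and Slc22a12, and 1 fell, again Slc5a2, against 1.33% called in either direction over all genes tested (median 0.06, and −0.05 with 9 of 16 negative without WT MAT2Ai 2, 3 and 4). Other organic anion carriers of these segment lists did not pass: Slc22a8 stood at −0.02 ± 0.11 (adjusted p = 0.948), Slc22a7 at 0.46 ± 0.20 (0.209) and Slc22a13 at −0.31 ± 0.28 (0.574). Of 14 S3 markers 1 rose, Cyp2e1 (median 0.11), and Slco1a1, an organic anion carrier of S3, stood at 0.61 ± 0.15 (adjusted p = 0.0507). Slc6a15, a carrier of branched-chain amino acids and proline, went from 24.9, 30.1 and 44.1 CPM in WT to 36.1, 47.1 and 58.3 CPM in SP and rose by 0.61 ± 0.10 (adjusted p = 0.0148). In the other direction Slc7a12, an amino acid carrier of the kidney, went from 2.37, 6.63 and 12.6 CPM in WT to 0.928, 1.87 and 3.91 CPM in SP and fell by 1.66 ± 0.32 (adjusted p = 0.0212).

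**Figure D4:**
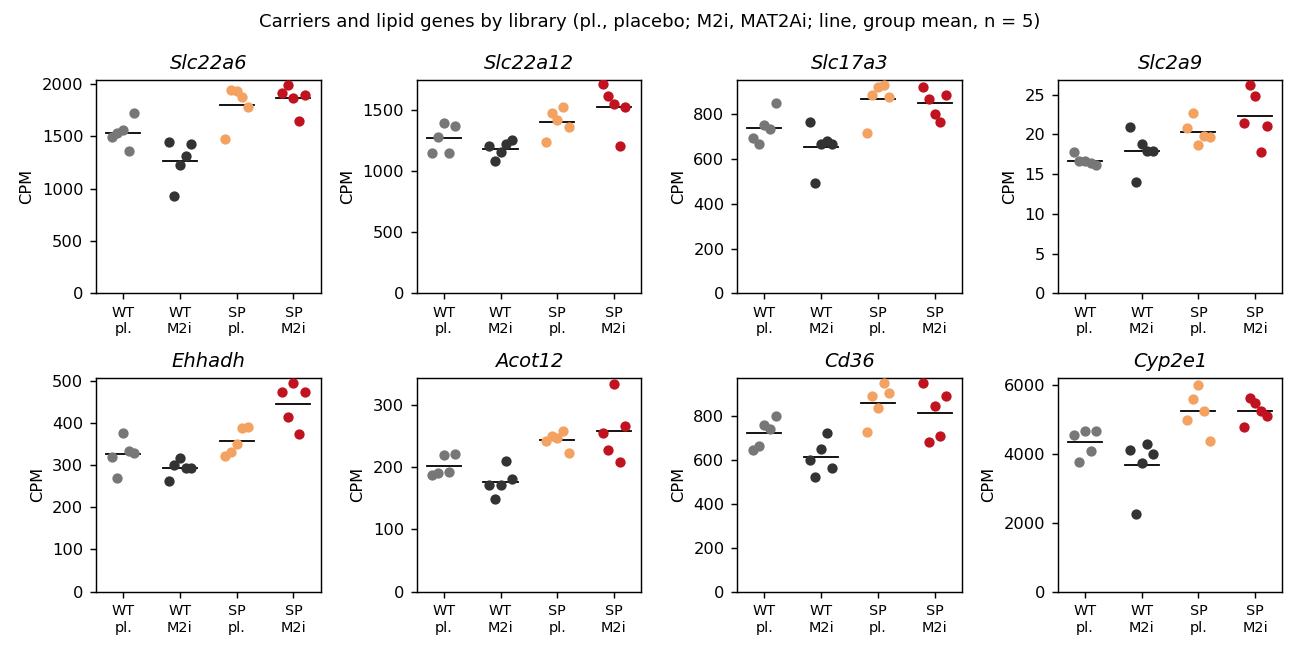
CPM of 8 genes of transport, lipid and drug metabolism in each of the 20 libraries, by group (pl., placebo; M2i, MAT2Ai); the black line is the group mean (n = 5) and each axis starts at 0. WT MAT2Ai replicate 2 is the lowest library for Slc22a6 (926 CPM) and Cyp2e1 (2273 CPM), and the SP groups lie higher, with some overlap in each panel.

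Several genes of lipid handling rose. Lpl, lipoprotein lipase, which frees fatty acids from circulating triglyceride, separated the genotypes completely: it stood at 312, 444 and 490.4 CPM in WT and 500, 559.8 and 711 CPM in SP. Its log2 fold change was 0.44 ± 0.08 (adjusted p = 0.0202), 0.30 ± 0.11 under placebo and 0.59 ± 0.11 under MAT2Ai. Degs2, which makes the hydroxylated sphingoid base of phytoceramide, was also above every WT library in all 10 SP libraries, at 39.0, 68.3 and 80.5 CPM in WT and 82.3, 99.6 and 109 CPM in SP, and rose by 0.59 ± 0.09 (adjusted p = 0.0134). Cd36, a fatty acid receptor and carrier, went from 521, 654 and 797 CPM in WT to 679, 867 and 949 CPM in SP, with 7 of 10 SP libraries above every WT library, and rose by 0.33 ± 0.07 (adjusted p = 0.0357). Cd36 was chosen after its values were seen.

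Ehhadh, the bifunctional enzyme of peroxisomal fatty acid oxidation, stood at 262, 308 and 375 CPM in WT and 322, 389 and 494 CPM in SP and rose by 0.37 ± 0.06 (adjusted p = 0.0176). The difference was 0.13 ± 0.09 under placebo and 0.61 ± 0.09 under MAT2Ai, and the interaction did not pass (adjusted p = 0.842). Acot12, which splits acetyl-CoA in the cytosol, went from 149, 189 and 221 CPM in WT to 209, 249 and 334 CPM in SP and rose by 0.41 ± 0.07 (adjusted p = 0.0202), with 9 of 10 SP libraries above every WT library. Hacd2, a dehydratase of very long chain fatty acid elongation, went from 92.8, 106 and 116 CPM in WT to 115, 120.0 and 128 CPM in SP, with 8 of 10 SP libraries above every WT library, and rose by 0.21 ± 0.04 (adjusted p = 0.0202). Few other genes of these pathways passed. Of 30 genes of fatty acid oxidation and PPAR alpha targets Ehhadh was the only member that passed, beside 1.33% of all genes tested. In this list 18 of 30 were positive, and the median was 0.05. Of 9 ketone body genes, 15 of gluconeogenesis and 19 of glycolysis 0 passed in edgeR, with medians of 0.12, 0.03 and 0.04. An unadjusted p under 0.05 was reached by 3, 3 and 4 of them, DESeq2 called 1, 1 and 0, and limma-voom 2, 2 and 1, beside shares of 19.6%, 5.53% and 8.3% over all genes tested.

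Enzymes that handle drugs and steroids moved in both directions. Cyp2e1, which oxidises ethanol and other small molecules, was the most abundant of the genes named here, at 2273, 4099 and 4678 CPM in WT and 4380.3, 5253 and 6027 CPM in SP. It rose by 0.39 ± 0.09 (adjusted p = 0.0434), with 9 of 10 SP libraries above every WT library. Ces2b, a carboxylesterase of a family with close copies, went from 4.40, 9.02 and 11.7 CPM in WT to 9.74, 13.7 and 22.3 CPM in SP and rose by 0.67 ± 0.15 (adjusted p = 0.0357). Cyp2d9, a steroid hydroxylase of mouse that shares sequence with other Cyp2d genes, went from 99.5, 145 and 308 CPM in WT to 37.3, 73.2 and 123 CPM in SP and fell by 0.95 ± 0.17 (adjusted p = 0.0202), by the same size under placebo (−0.96 ± 0.24) and MAT2Ai (−0.93 ± 0.24). Nr1i2, the drug-sensing receptor PXR, fell by 0.87 ± 0.19 (adjusted p = 0.0348) at a low level, 1.52, 2.19 and 4.74 CPM in WT and 1.01, 1.36 and 1.92 CPM in SP. Gsta2, a glutathione transferase that NRF2 controls and that has close copies, fell by 0.64 ± 0.15 (adjusted p = 0.0416), the only 1 of 18 NRF2 targets and metallothioneins to pass (median −0.13). Of 19 genes of cytochrome P450 and steroid metabolism Cyp2e1 and Cyp2d9 passed (median 0.06). Beside this list and the NRF2 list, 1.33% of all genes tested passed.

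Secreted factors and surface enzymes were also among the rises. Ccl28, a chemokine of mucosal epithelia, went from 342, 438 and 629.6 CPM in WT to 525, 673 and 1011 CPM in SP and rose by 0.67 ± 0.13 (adjusted p = 0.0202). In WT, MAT2Ai replicate 4 held the highest value, 629.6 CPM, inside the SP range. Adm, the vasodilator peptide adrenomedullin, went from 5.44, 6.34 and 9.36 CPM in WT to 6.39, 9.73 and 12.6 CPM in SP and rose by 0.53 ± 0.12 (adjusted p = 0.0376), the only 1 of 17 hypoxia response genes to pass (median 0.01, and −0.02 without WT MAT2Ai 2, 3 and 4). Anpep, the brush border aminopeptidase N that trims angiotensin III, rose by 0.31 ± 0.07 (adjusted p = 0.0416), 1 of 11 renin-angiotensin genes, and Ace stood at 0.36 ± 0.09 (adjusted p = 0.0548). Over all genes tested 1.33% passed, so 1 call in lists of 17 and 11 genes is not a result about the list.

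Other rises, of genes with varied roles, were those of Mpped1, a metallophosphoesterase (0.69 ± 0.16, adjusted p = 0.0379), Tmem237, a protein of the ciliary transition zone (0.52 ± 0.11, adjusted p = 0.0282), Zpld1, a membrane protein with a zona pellucida domain (0.52 ± 0.10, adjusted p = 0.0221), and Cym, the protease chymosin (0.66 ± 0.13, adjusted p = 0.0212). Cym was scarce, at 0.803, 0.945 and 1.26 CPM in WT and 1.05, 1.57 and 2.37 CPM in SP. Tmem237 went from 28.9, 44.5 and 54.0 CPM to 48.1, 66.4 and 81.6 CPM, and 8 of 10 SP libraries were above every WT library. Zpld1 stood at 3.82, 5.23 and 5.83 CPM in WT and 5.23, 7.15 and 8.56 CPM in SP. Mpped1 stood at 11.8, 21.9 and 35.0 CPM and 26.9, 38.4 and 49.4 CPM, and its difference was 0.42 ± 0.22 under placebo and 0.97 ± 0.22 under MAT2Ai.

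Most of the genes with the furthest falls were of low abundance and spread widely among the WT libraries. Ceacam2, an adhesion molecule with a near-identical relative, Ceacam1, went from 2.12, 6.73 and 15 CPM in WT to 0.822, 1.24 and 6.50 CPM in SP and fell by 1.97 ± 0.43 (adjusted p = 0.0351). Without WT MAT2Ai 2, 3 and 4 the value was −1.30 (adjusted p = 0.123). Stra6, the receptor through which cells take retinol from its binding protein, went from 0.974, 1.79 and 2.92 CPM in WT to 0.437, 0.730 and 2.07 CPM in SP and fell by 1.25 ± 0.25 (adjusted p = 0.0277), and 9 of 10 SP libraries were below every WT library. The exception was SP MAT2Ai 4, at 2.07 CPM. Pigz, a mannosyltransferase of GPI anchors, went from 1.74, 2.53 and 4.05 CPM to 1.01, 1.19 and 2.01 CPM and fell by 0.86 ± 0.14 (adjusted p = 0.0148). Atp1b2, a beta subunit of the sodium pump, went from 7.40, 9.23 and 12.2 CPM to 5.16, 6.29 and 7.83 CPM and fell by 0.50 ± 0.09 (adjusted p = 0.0202). Of the SP libraries 8 and 7 of 10 were below every WT library.

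Bhmt uses betaine to turn homocysteine back into methionine. It was scarce in cortex, at 1.01, 1.42 and 3.36 CPM in WT and 0.452, 0.745 and 1.03 CPM in SP, and fell by 1.13 ± 0.20 (adjusted p = 0.0202), and 9 of 10 SP libraries were below every WT library. The change was −1.33 ± 0.29 under placebo and −0.93 ± 0.29 under MAT2Ai. It was the only 1 of 19 genes of the methionine cycle and SAM use to pass (median 0.02), beside 1.33% of all genes tested. Bhmt2, its far more abundant relative in these libraries, differed by 0.17 ± 0.08 (adjusted p = 0.278). Mat2a, the target of the inhibitor, stood at 314, 395 and 525 CPM in WT and 265, 366 and 485 CPM in SP, with a log2 fold change of −0.12 ± 0.10 (adjusted p = 0.545). Of 14 PRC2 subunits and H3K27 demethylases 0 passed in edgeR, DESeq2 or limma-voom, and 0 had an unadjusted p under 0.05 (median −0.0019). Aebp2 was one of them (0.0038 ± 0.04, adjusted p = 0.974).

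Several falls were smaller without the WT MAT2Ai libraries 2, 3 and 4 and no longer passed. Serpina1b, an alpha-1-antitrypsin of a family with close copies, fell by 1.64 ± 0.37 (adjusted p = 0.0369), and stood at −0.56 (adjusted p = 0.275) without those 3 libraries, which held 53.7, 24.9 and 24.1 CPM where the SP libraries held 2.96, 4.70 and 7.97 CPM. Sgk1, a kinase that aldosterone and osmotic stress induce and the 1 of 15 osmolyte and urea handling genes that passed, fell by 0.91 ± 0.21 (adjusted p = 0.0408) and stood at −0.48 (0.121) without them. Its levels were 30.6, 58.6 and 187 CPM in WT, with 187 CPM in WT MAT2Ai 2, and 24.2, 38.0 and 45.8 CPM in SP. Trib3, a pseudokinase of the integrated stress response, fell by 1.34 ± 0.32 (adjusted p = 0.0449), 1 of 21 unfolded protein and integrated stress response genes and the only one to pass (median −0.16), and stood at −0.75 (0.0794) without them. Cxcl14, a chemokine of epithelia, fell by 1.05 ± 0.23 (adjusted p = 0.0357) and stood at −0.75 (0.117) without them. The osmolyte and stress response lists held 1 call each, beside 1.33% of all genes tested.

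Markers of the cells between the tubules had negative medians, and few members passed. C1qb and C1qc, complement chains of resident macrophages, were the 2 of 17 macrophage and dendritic cell markers that fell, where 0.724% of all genes tested did. C1qb stood at 6.17, 7.65 and 10.1 CPM in WT and 2.95, 4.91 and 7.22 CPM in SP (−0.67 ± 0.13, adjusted p = 0.026), and 9 of 10 SP libraries were below every WT library. C1qc fell by 0.65 ± 0.13 (adjusted p = 0.0255). All 17 members were negative, with a median of −0.57 against −0.01 over all genes, −0.34 under placebo and −0.70 under MAT2Ai. Without WT MAT2Ai 2, 3 and 4 the median was −0.42, with 16 of 17 negative. An unadjusted p under 0.05 was reached by 9, beside 19.6% of all genes tested. DESeq2, the likelihood ratio test and limma-voom called 4, 4 and 5, beside 5.53%, 4.19% and 8.3%. The summed level of the list was 194, 228 and 1799.9 CPM in WT and 106, 178 and 259.8 CPM in SP. The 1799.9 CPM belonged to a WT MAT2Ai library, and WT placebo held 194 to 251 CPM. Ms4a6b, a membrane protein of leukocytes, went from 1.29, 1.78 and 3.45 CPM in WT to 0.730, 1.0 and 1.48 CPM in SP and fell by 0.99 ± 0.16 (adjusted p = 0.0134). In bulk RNA, fewer cells of a type and less RNA per cell cannot be told apart.

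Other cell types gave negative medians as well, without calls. All 15 lymphocyte markers tested were negative (median −0.66), as were all 12 endothelial markers (−0.36) and all 6 neutrophil markers (−0.51), and 0 of each passed in edgeR. An unadjusted p under 0.05 was reached by 5 lymphocyte, 10 endothelial and 0 neutrophil markers, DESeq2 called 0, 2 and 0, and limma-voom 0, 10 and 0, again beside 19.6%, 5.53% and 8.3% of all genes tested. The summed levels of these lists overlapped between the genotypes: lymphocyte markers held 160.3, 313 and 636 CPM in WT and 101, 240.4 and 521 CPM in SP, and endothelial markers 176, 326 and 446 CPM and 167, 239.9 and 329.6 CPM. Of 10 podocyte markers 8 were negative (−0.19). Among tubule segments beyond the proximal tubule, the medians were −0.18 for 10 thick ascending limb markers, 0.09 for 10 of the distal convoluted and connecting tubule, and 0.17 for 16 of the collecting duct. No member of these 3 lists or of the podocyte list passed in edgeR or DESeq2, limma-voom called 2, 0, 4 and 3, and 1, 0, 7 and 4 had an unadjusted p under 0.05, beside 8.3% and 19.6% of all genes tested. Without WT MAT2Ai 2, 3 and 4 the median of the distal convoluted and connecting tubule list was −0.02, with 8 of 10 negative.

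Ucp1 and Cfd, the 2 of 4 tested adipocyte markers that fell, were near 0 in most libraries and high in a few from WT. Ucp1, the uncoupling protein of brown fat, held 0.0190, 11.6, 1.21, 0.283 and 0.656 CPM in WT placebo 1 to 5, 0, 0.0155, 9.99, 0.906 and 3.17 CPM in WT MAT2Ai, 0.231, 0.198, 0.141, 0.131 and 0.501 CPM in SP placebo and 0.244, 0.0146, 0.250, 0.0129 and 0.0152 CPM in SP MAT2Ai. The log2 fold change was −4.13 ± 1.01 (adjusted p = 0.0485), and the high values belong to WT placebo 2 and WT MAT2Ai 3 and 5. Cfd, the fat-cell protease adipsin, stood at 0, 0.160 and 5.11 CPM in WT and 0, 0.0235 and 0.168 CPM in SP, was high in the WT MAT2Ai libraries 3 and 5 too, at 5.11 and 1.77 CPM, and fell by 4.40 ± 1.01 (adjusted p = 0.0408). Of 8 markers listed 4 had enough counts to be tested, and the defining markers Adipoq, Plin1, Lep and Retn did not. The summed level of the 4 tested markers was 14.8, 22.9 and 60.6 CPM in WT and 11.1, 16.6 and 36.1 CPM in SP, and the part of fat tissue in these values was not tested. Hba-a2, an alpha globin with a near-identical copy, stood at 0.403, 0.693 and 7.75 CPM in WT and 0.0833, 0.287 and 0.594 CPM in SP and fell by 2.08 ± 0.39 (adjusted p = 0.0202), the only 1 of 8 erythroid markers to pass, and 6 of the 8 were positive. Over all genes tested 0.724% fell past the threshold.

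Of 24 fibroblast, smooth muscle and matrix genes 4 fell, where 0.724% of all genes tested did, and 3 of the 4 are described here. Tagln, a smooth muscle actin-binding protein, stood at 17.0, 26.8 and 37.1 CPM in WT and 12.2, 17.1 and 19.5 CPM in SP and fell by 0.66 ± 0.11 (adjusted p = 0.0174). It passed in each of the 20 fits without 1 library. Tgfb1, the growth factor that drives fibrosis, fell by 0.43 ± 0.10 (adjusted p = 0.0379), with −0.16 ± 0.14 under placebo and −0.69 ± 0.14 under MAT2Ai. Mgp, an inhibitor of calcification, fell by 0.78 ± 0.18 (adjusted p = 0.0408). Of the 24 members 22 were negative (median −0.51, and −0.38 without WT MAT2Ai 2, 3 and 4). The other matrix and muscle genes that the study named did not pass. Acta2 had −0.52 ± 0.13 (adjusted p = 0.0539), Col1a1 −0.81 ± 0.27 (0.107), Col3a1 −0.55 ± 0.24 (0.209), Vim −0.25 ± 0.08 (0.112) and Fn1 −0.20 ± 0.18 (0.571).

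Tubular injury markers had the lowest median of the lists beside the adipocyte markers, −0.85 over 25 genes, all negative. In edgeR 0 of them passed, 20 had an unadjusted p under 0.05, and DESeq2, the likelihood ratio test and limma-voom called 7, 10 and 6, beside 19.6%, 5.53%, 4.19% and 8.3% of all genes tested. The median was −0.24 under placebo and −1.41 under MAT2Ai, and −0.23 with 18 of 25 negative without WT MAT2Ai 2, 3 and 4. Havcr1 (KIM-1), a receptor that injured proximal tubule cells display, held 34.1, 29.1, 27.3, 50.8 and 27.2 CPM in WT placebo and 52.5, 1214, 74.4, 43.8 and 20.6 CPM in WT MAT2Ai. In SP it stood at 28.5, 13.7, 23.8, 30.8 and 42.3 CPM in placebo and 24.4, 65.9, 23.8, 28.7 and 18.3 CPM in MAT2Ai. Its averaged log2 fold change was −1.70 ± 0.56 (adjusted p = 0.109), and −0.23 (adjusted p = 0.721) without those 3 libraries.

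The inflammatory signalling genes that the study named did not pass in the averaged contrast. The study compared SP and WT mice on HFD without inhibitor, by RT-qPCR, p65 protein and single-cell RNA. It also compared the groups with and without MAT2Ai by RNA-Seq, RT-qPCR and p65 staining. It reports that MAT2Ai abolished the protection of SP mice. An average over both treatments is therefore an unlike comparison, so values under placebo are given as well. Of 21 NF-kB subunits and regulators 0 passed in edgeR or DESeq2 and 1 (Nfkbib) in limma-voom, and 5 had an unadjusted p under 0.05 (median −0.0045, and 0.02 without WT MAT2Ai 2, 3 and 4). Nfkb1 stood at −0.14 ± 0.07 (adjusted p = 0.27), Rela at −0.05 ± 0.10 (0.818), Relb at −0.02 ± 0.18 (0.973), Nfkb2 at −0.05 ± 0.14 (0.876) and Ecsit at 0.16 ± 0.07 (0.201). Of 17 NF-kB targets tested 14 were negative (median −0.45, −0.25 under placebo, −0.65 under MAT2Ai, and −0.36 without WT MAT2Ai 2, 3 and 4). An unadjusted p under 0.05 was reached by 10, beside 19.6% of all genes tested. DESeq2, the likelihood ratio test and limma-voom called 5, 5 and 4, beside 5.53%, 4.19% and 8.3%. In edgeR 1 target fell, where 0.724% of all genes tested did. It was Ptgs2, the inducible cyclooxygenase COX-2 (−1.35 ± 0.29, adjusted p = 0.0308). Ptgs2 was scarce, at 0.482, 0.993 and 2.94 CPM in WT and 0.172, 0.501 and 0.900 CPM in SP, and stood at −0.72 (adjusted p = 0.148) without WT MAT2Ai 2, 3 and 4. Icam1 had −0.19 ± 0.24 (adjusted p = 0.715), Il1b −0.22 ± 0.28 (0.715) and Ccl2 −0.77 ± 0.29 (0.142). Tnf and Il6 had too few counts to be tested, with at most 0.187 and 0.167 CPM in a library. Of 22 AP-1 and immediate early genes 0 passed in edgeR and 1 (Batf) in DESeq2 and in limma-voom, and 4 had an unadjusted p under 0.05. Fos had −0.12 ± 0.49 (adjusted p = 0.926), with opposite signs under placebo (−1.93 ± 0.72) and MAT2Ai (1.70 ± 0.69), and its interaction did not pass (adjusted p = 0.842). Jun stood at 0.01 ± 0.23 (0.993) and Junb at −0.10 ± 0.28 (0.882). Under placebo, Il1b stood at −0.57 ± 0.40, Ccl2 at −0.55 ± 0.41, Junb at −0.42 ± 0.40 and Jun at −0.36 ± 0.33. Nfkb1, Nfkb2 and Icam1 stood at −0.11 ± 0.10, −0.05 ± 0.19 and −0.01 ± 0.34 there. Ecsit, Relb and Rela were positive, at 0.08 ± 0.09, 0.06 ± 0.26 and 0.01 ± 0.14. No gene passed under placebo in edgeR's quasi-likelihood test.

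Interferon response and MHC genes were all negative, with 1 of each list past the threshold. Over all 16152 genes tested, 8533 were negative and 117 (0.724%) fell past the threshold. All 25 interferon response genes were negative (median −0.55, −0.33 under placebo, −0.75 under MAT2Ai, and −0.69 without WT MAT2Ai 2, 3 and 4). The 1 that fell was Ifi27, an interferon-induced mitochondrial protein, from 17.3, 21 and 43.3 CPM in WT to 12.7, 15.7 and 17.8 CPM in SP (−0.60 ± 0.12, adjusted p = 0.0295). All 15 MHC genes were negative (median −0.81, −0.17 under placebo, −1.37 under MAT2Ai, and −1.19 without WT MAT2Ai 2, 3 and 4). H2-M3, a class I molecule that presents formylated peptides and has related copies, fell by 0.80 ± 0.17 (adjusted p = 0.0351). It passed in 11 of the 20 fits without 1 library. The summed MHC level was 547, 605 and 4105 CPM in WT and 416, 553 and 605 CPM in SP. The 4105 CPM belonged to a WT MAT2Ai library, and WT placebo held 547 to 637 CPM. The summed interferon level reached 626 CPM in a WT MAT2Ai library, where WT placebo held 126 to 161 CPM. The medians without WT MAT2Ai 2, 3 and 4 still include WT MAT2Ai 5. That library held 3.81 CPM of H2-M3 where the others of its group held 1.39 to 1.71 CPM. The medians of these lists were not taken without it. An unadjusted p under 0.05 was reached by 17 interferon response and 14 MHC genes, beside 19.6% of all genes tested. DESeq2 called 5 and 3, the likelihood ratio test 4 and 6, and limma-voom 4 and 2, beside 5.53%, 4.19% and 8.3%. Of 26 p53 targets, 18 cell cycle genes, 17 clock genes and 13 mitochondrially encoded mRNAs 0 passed in edgeR, with medians of −0.0029, −0.10, 0.02 and −0.16. An unadjusted p under 0.05 was reached by 3, 2, 3 and 3, DESeq2 called 0, 0, 1 and 1, and limma-voom 0, 0, 2 and 2, beside 19.6%, 5.53% and 8.3% of all genes tested. Without WT MAT2Ai 2, 3 and 4 the median of the clock genes was −0.04.

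**Figure D5:**
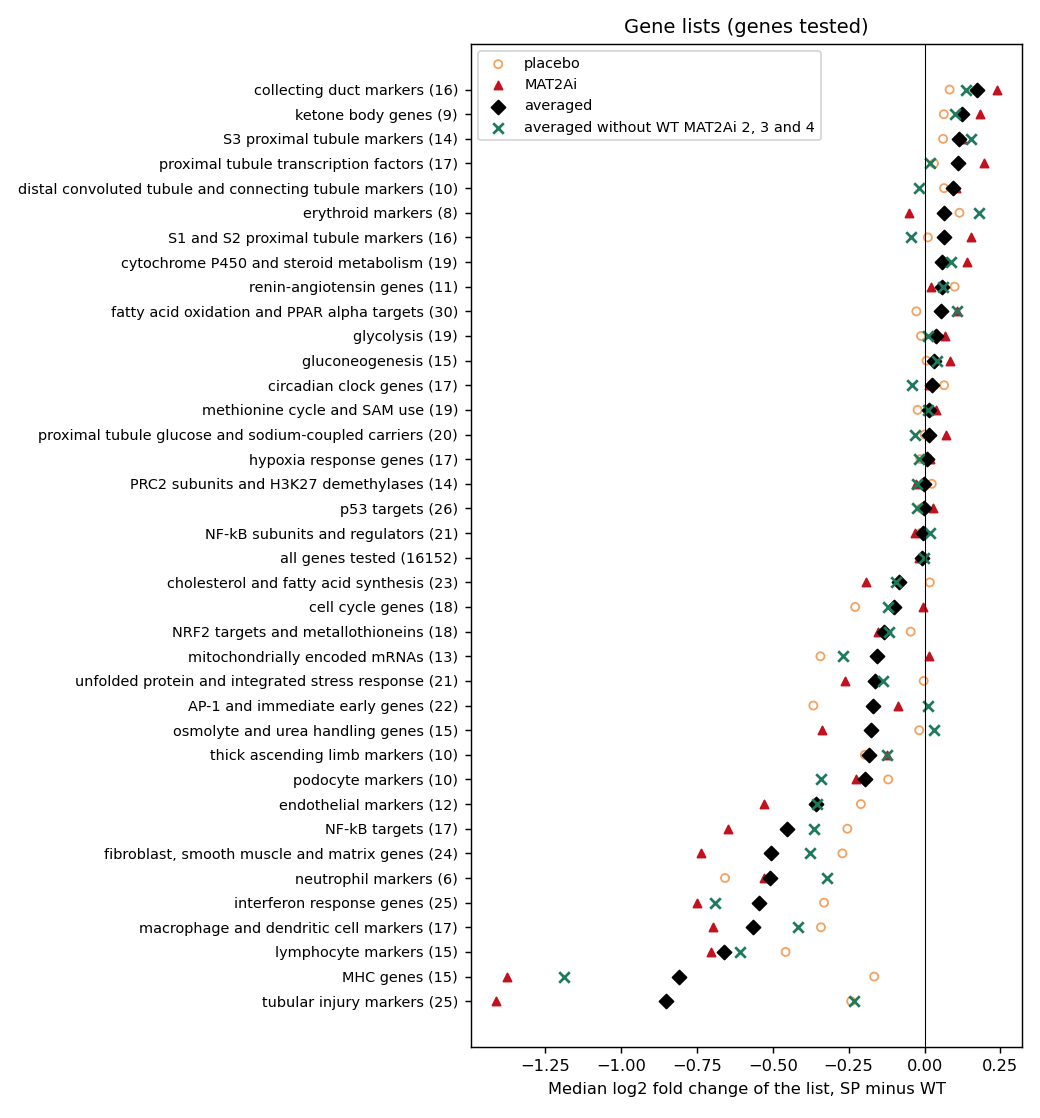
Median log2 fold change, SP minus WT, of each gene list (number of genes tested in brackets) averaged over treatments (black diamonds), under placebo (open circles), under MAT2Ai (red triangles) and averaged without WT MAT2Ai 2, 3 and 4 (green crosses); adipocyte markers, at −3.72, lie outside and are left out. Lists of cells between the tubules, interferon, MHC and injury genes lie to the left, and the injury list moves from −0.85 to −0.23 without the 3 libraries.

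For 6 genes (0.0371% of those tested) all 10 SP libraries lay on the same side of all 10 WT libraries. Beside Lpl and Degs2 these were Rabggta, a subunit of the enzyme that attaches lipid anchors to Rab proteins, which was higher in SP, and Rtn1, Aida and Wipf1, which were lower. They were taken by this rule, after their values were seen. Rabggta stood at 60.7, 74.9 and 84.2 CPM in WT and 84.4, 88.3 and 93.5 CPM in SP, with the same rise under placebo (0.24 ± 0.07) and MAT2Ai (0.25 ± 0.07). Wipf1, an actin regulator of leukocytes, stood at 4.97, 5.36 and 7.81 CPM and 3.17, 4.2 and 4.96 CPM (−0.45 ± 0.10, adjusted p = 0.0379). Aida stood at 13.7, 14.8 and 23.8 CPM and 11.6, 12.9 and 13.6 CPM (−0.29 ± 0.07, adjusted p = 0.0476), and Rtn1, a reticulon of the endoplasmic reticulum, at 0.515, 0.629 and 3.61 CPM and 0.167, 0.393 and 0.515 CPM (−1.33 ± 0.31, adjusted p = 0.0408, and −0.73 (adjusted p = 0.0867) without WT MAT2Ai 2, 3 and 4). Slc5a2 was not among the 6, since the libraries labelled SP placebo 1 and 2 lay inside the WT range.

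Some of the genes described above kept their direction but not their call without the doubted libraries. Without the libraries labelled SP placebo 1 and 2, the log2 fold changes of genes higher in SP were BC017158 0.17 (adjusted p = 0.0586), Rabggta 0.24 (adjusted p = 0.0504) and Cyp2e1 0.38 (adjusted p = 0.0755). Those of genes lower in SP were Ceacam2 −1.94 (adjusted p = 0.0509), Serpina1b −1.62 (adjusted p = 0.0645), Sgk1 −0.94 (adjusted p = 0.0645), Trib3 −1.39 (adjusted p = 0.0584), Cxcl14 −0.99 (adjusted p = 0.0702), H2-M3 −0.82 (adjusted p = 0.0511) and Gsta2 −0.67 (adjusted p = 0.065). For the stromal, adipocyte and non-overlapping genes they were Mgp −0.83 (adjusted p = 0.0586), Ucp1 −4.08 (adjusted p = 0.0928), Cfd −5.07 (adjusted p = 0.0562), Aida −0.28 (adjusted p = 0.0799) and Rtn1 −1.33 (adjusted p = 0.0707). Without WT MAT2Ai 2, 3 and 4, genes whose call was lost were BC017158 0.15 (adjusted p = 0.0629), Adm 0.51 (adjusted p = 0.0734), Tgfb1 −0.38 (adjusted p = 0.081), Mgp −0.76 (adjusted p = 0.0524), Wipf1 −0.41 (adjusted p = 0.0517), Rtn1 −0.73 (adjusted p = 0.0867) and Reep6 −0.30 (adjusted p = 0.0774).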

How the data were processed

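Total RNA of kidney cortex from 20 mice was selected for poly(A), made into directional libraries and sequenced by the authors, who trimmed the reads, aligned them to mm10 with STAR and counted them per gene with htseq-count on an Ensembl annotation. The deposited values are raw read counts of 43430 genes for 1 library each, with no normalization by the authors. The strand setting of the counting is not given in the sources used here. Genes that share sequence with a copy can lose reads, because htseq-count leaves out reads that align to several places, and these came to 48.3 to 63.6 alignments per 100 counted reads. The 5 summary lines of each table were left out: reads in no gene made up 3.87% to 5.49%, and ambiguous reads 0.702% to 0.794%, of the sum of these and the reads counted in genes. Symbols, coordinates and gene types of 42546 genes came from GENCODE M21, and the 884 other IDs stayed without a symbol.

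Groups were taken from the sample labels. Counts were fitted with edgeR 4.0.16 in R 4.3.3: filterByExpr by group, TMM scaling, 1 coefficient per group, the quasi-likelihood test of the averaged contrast, and Benjamini-Hochberg adjustment over 16152 genes with a threshold of 0.05. The spread was estimated with 16 residual degrees of freedom from mice given as separate samples in the labels, so p-values measure the spread between these libraries. SE is the size of the log2 fold change divided by the square root of F. CPM used the TMM-scaled library sizes, and log2 CPM a prior count of 2. The procedure was tested on simulated data. These had the same genotype effect under both treatments and no library that stood apart, so the test does not cover such features of the real data.

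Genes named in the text were Slc5a2, the genes the study names, the 12 furthest rises, the 12 furthest falls and the 8 next smallest p (all past the threshold, with an established symbol and a mean log2 CPM of 0 or more), and at most 3 genes of each list that is described, those of smallest p. Members and lists were chosen with earlier results of these data known. Alternatives were relative log expression size factors, DESeq2 1.42.0, the likelihood ratio test, limma-voom (limma 3.58.1) with sample weights, filters on low counts, an additive model, a replicate block, and fits without libraries. Some genes past the threshold are not reported here.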

Additional observations from a re-analysis of the deposited data

Results flagged for a closer look

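In 11 of 204 groups of 5 libraries checked for the genes named by rule, 1 library stood apart from the other 4 by a gap of more than 0.71 of the group's range (Dixon's criterion). Chance gives about 1 in 20 groups, and no cause was tested.

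WT MAT2Ai 2 stood apart for 3 genes. It held 2273 CPM of Cyp2e1 where the others held 3755 to 4301 CPM (gap 0.787 of the range), 157 CPM of Anpep against 214 to 229 CPM (0.827), and 4.95 CPM of Trib3 against 0.681 to 1.11 CPM (0.758). In the same group WT MAT2Ai 4 held 629.6 CPM of Ccl28 against 342 to 407 CPM (0.718), and WT MAT2Ai 5 held 3.81 CPM of H2-M3 against 1.39 to 1.71 CPM (0.797).

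In WT placebo, replicate 1 held 17.7 CPM of Slc2a9 against 16.2 to 16.6 CPM (0.725), replicate 2 held 3.82 CPM of Zpld1 against 5.21 to 5.83 CPM (0.735), and replicate 5 held 116 CPM of Hacd2 against 106 to 108 CPM (0.827). In SP placebo, the library labelled replicate 1 held 717 CPM of Slc17a3 against 877 to 932 CPM (0.768), and replicate 5 held 3.70 CPM of Cxcl14 against 1.49 to 1.88 CPM (0.745). SP MAT2Ai 3 held 0.0833 CPM of Hba-a2 against 0.259 to 0.325 CPM (0.818).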

How the results depend on the processing

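The numbers of genes higher, lower and following genotype under both treatments (98, 117 and 130) depended on the test and the libraries. They were 344, 550 and 265 with DESeq2, 214, 463 and 229 with the likelihood ratio test, and 624, 717 and 657 with limma-voom. Without a filter on low counts 65 were higher, and the additive model gave 67 lower. Leaving out each library in turn gave 9 to 311 higher, 11 to 245 lower and 17 to 239 following. Without WT MAT2Ai 2, 3 and 4 the numbers were 257, 187 and 255, and without these and the libraries labelled SP placebo 1 and 2, an alternative added after seeing the data, 335, 234 and 406. The placebo libraries alone gave 0 higher and 0 lower, and the MAT2Ai libraries alone 0 higher and 2 lower, with fewer samples in each fit. The cause of the other differences was not tested. Slc5a2 was −1.62 (adjusted p = 0.397) in the placebo libraries alone and passed in every other fit. Each of the 215 genes kept its sign in every setting that tested it, but the settings reuse the libraries by which these genes were chosen. Of the 106 named genes that did not pass, 23 turned sign in at least 1 setting. Of the 50 named genes past the threshold beside Slc5a2, 48 still passed with relative log expression size factors, 39 in the additive model, 36 without the libraries labelled SP placebo 1 and 2 and 38 without WT MAT2Ai 2, 3 and 4, but 30 with the replicate block, and between 16 (without SP placebo 4) and 50 when each library was left out in turn, with 18 without SP placebo 3 and 20 without SP MAT2Ai 5.

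Nothing in the labels ties libraries of the same replicate number. Over 30 pairs of same-numbered libraries the mean correlation of deviations from the group means was −0.0158 (−0.157 to 0.265). Of these pairs 4 exceeded 0.1, and 6 of 20 libraries correlated best with their own number. These values cannot exclude a link within some pairs. With the replicate block 60 genes were higher, 54 lower and 90 followed genotype under both treatments, and Slc5a2 was −2.16. Depth limits the scarce genes: 25 of the 215 had a mean log2 CPM below 0.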
